A study of Mus musculus with 4 samples.

Results

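Cells that run short of oxygen switch on a shared set of genes through the hypoxia-inducible factors (HIFs). The group described here holds 38 of the 17630 genes listed for each library. It has 4 HIF subunits, 4 oxygen sensors and HIF regulators, and 30 known hypoxia targets that lie outside glycolysis. The members were chosen from textbook knowledge of the pathway with the log2(FPKM + 1) differences of these same 4 libraries already known, the large rise of Ndufa4l2 among them. All values below are therefore descriptions, and no test was made on them.

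A HIF is made of an alpha subunit, which is hydroxylated and destroyed when oxygen is present, and a stable beta subunit. When oxygen falls, or when other signals raise the alpha subunit, the complex binds hypoxia response elements near its target genes. Targets outside glycolysis trim mitochondria, call in blood vessels, modify collagen, handle acid, iron and lipid, and feed back on the HIF pathway itself. HIF activity is set largely at the protein level, which transcript levels do not measure.

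The study asked how sympathetic nerves act on the mouse mammary gland and its stem cells. Basal cells, which line the outside of the mammary duct and include myoepithelial cells, were analysed by RNA-seq either directly after sorting or as colonies. The colonies grew from such cells in Matrigel, which is a hydrogel extracted from basement membrane. Every condition had 1 library, so there were no replicates and the spread between mice or cultures is unknown. The control sorted library came from basal cells with the treatment label none. The 6-OHDA sorted library came from basal cells of mice given 6-hydroxydopamine, a neurotoxin that destroys sympathetic nerve endings. The control colonies also carry the treatment label none, and the SP colonies carry the label salbutamol+phenylephrine (SP), agonists of the β2 and α1 adrenergic receptors. The labels do not state that the library called control colonies here came from colonies. This was inferred from its title, which pairs with that of the SP library, and from the study design, and every value that compares colonies rests on it. All 4 libraries carry the genotype label WT. The label of the SP library has a number with no unit, so no dose is given here. The sort took cells that lacked the blood and endothelial lineage markers and were CD24-positive with high CD29. The colony medium held epidermal growth factor and insulin–transferrin–selenium in both colony conditions. Strain, age and the number of mice behind each library are not given for the RNA-seq in the sources used here, nor is the oxygen level of the cultures.

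Values are FPKM as deposited, that is, fragment numbers normalised for gene length and for the total of fragments in the library. They summed to 508071 in control sorted cells, 517504 in 6-OHDA sorted cells, 577631 in control colonies and 588202 in SP colonies. Differences between 2 libraries are given on the log2(FPKM + 1) scale, which understates the change of low genes. A gene was counted as higher or lower when this difference passed 0.3 in size. The study's volcano plot of basal cells after 6-OHDA used this fold change threshold together with a limit on the adjusted p-value. No such limit could be set here, so numbers of genes called are not comparable with those of the study. Counts cover the 12282 genes with a mean of at least 1 FPKM over the 4 libraries. Of the 38 members, 37 passed this filter. The remaining member, Hif3a, was listed at 0.01 FPKM in control sorted cells and at 0 in the other 3 libraries.

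In each library 15756 to 16371 of the 17630 listed genes were above 0, so a value above 0 does not check the basal label. All 15 basal markers that were looked at were above 0 in every library. Krt14, a basal keratin, was the most abundant of them throughout, at 3595 FPKM in control sorted cells, 2633 in 6-OHDA sorted cells, 3298 in control colonies and 6919.9 in SP colonies. The summed level of the list was 12080.1, 11131, 7315 and 15248 FPKM in the same order. Krt14 and the keratin gene Krt5 held a large part of it in the colonies. Without these 2 genes, which were set aside after their values were seen, the sum was 7483, 7629, 2129 and 3750 FPKM, so both colony libraries then lay below both sorted ones. With SP, 8 of the 15 were higher and 2 were lower by more than 0.3, and with 6-OHDA 1 was higher and 3 were lower. In control colonies against control sorted cells, 2 were higher and 10 were lower, 7 of these by more than 1, or 2 and 13 after scaling by the median ratio between the libraries. Among the lower ones, and picked after their values were seen, Myh11, a smooth muscle myosin gene, stood at 466.8, 449.1, 11.2 and 21.4 FPKM. Luminal markers were present as well, and 13 of 15 passed the filter. With SP, 0 of these 13 were higher and 6 were lower, or 1 and 4 after scaling by the median ratio. In control colonies against control sorted cells, 10 were higher and 0 were lower, or 7 and 2 after that scaling. Over all genes, 55.6% were higher and 26.5% were lower in this comparison, or 39.6% and 39.4% after scaling. With SP the shares of all genes were 11.3% and 19.5%, or 14.5% and 14.6% after scaling, and with 6-OHDA 16% and 7.84%. The summed level of the luminal markers was 1434, 1299.9, 1994 and 1884 FPKM in the order of libraries given above. Krt8 led that list at 559.9, 545, 698 and 683 FPKM in the same order, while the milk protein genes Csn2 and Wap were listed at 0 in every library but the SP colonies. The part of basal and luminal markers in the values of the members was not tested.

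With SP, HIF targets were found in both directions. Mitochondrial and mitophagy genes, Car9, Vegfa, Egln3 and the collagen prolyl hydroxylases were higher in the SP colonies than in the control colonies, whereas stanniocalcins, Angptl4, Hilpda, Lox and Ppp1r3c were lower. Of the 37 members, 17 were higher and 8 were lower by more than 0.3, and 12 lay between. Over all 12282 genes, 11.3% were higher and 19.5% were lower by the same rule. Among the members the shares were 45.9% and 21.6%, so the lower share lay close to that over all genes. The median difference was 0.27 over the members and -0.06 over all genes. At a threshold of 1, 8 members were higher and 1 was lower, against 1.83% and 1.28% of all genes. Scaling by the median ratio between the libraries changed the split over all genes to 14.5% higher and 14.6% lower, and that over the members to 19 higher and 8 lower. Each count rests on 1 library per condition.

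**Figure D1:**
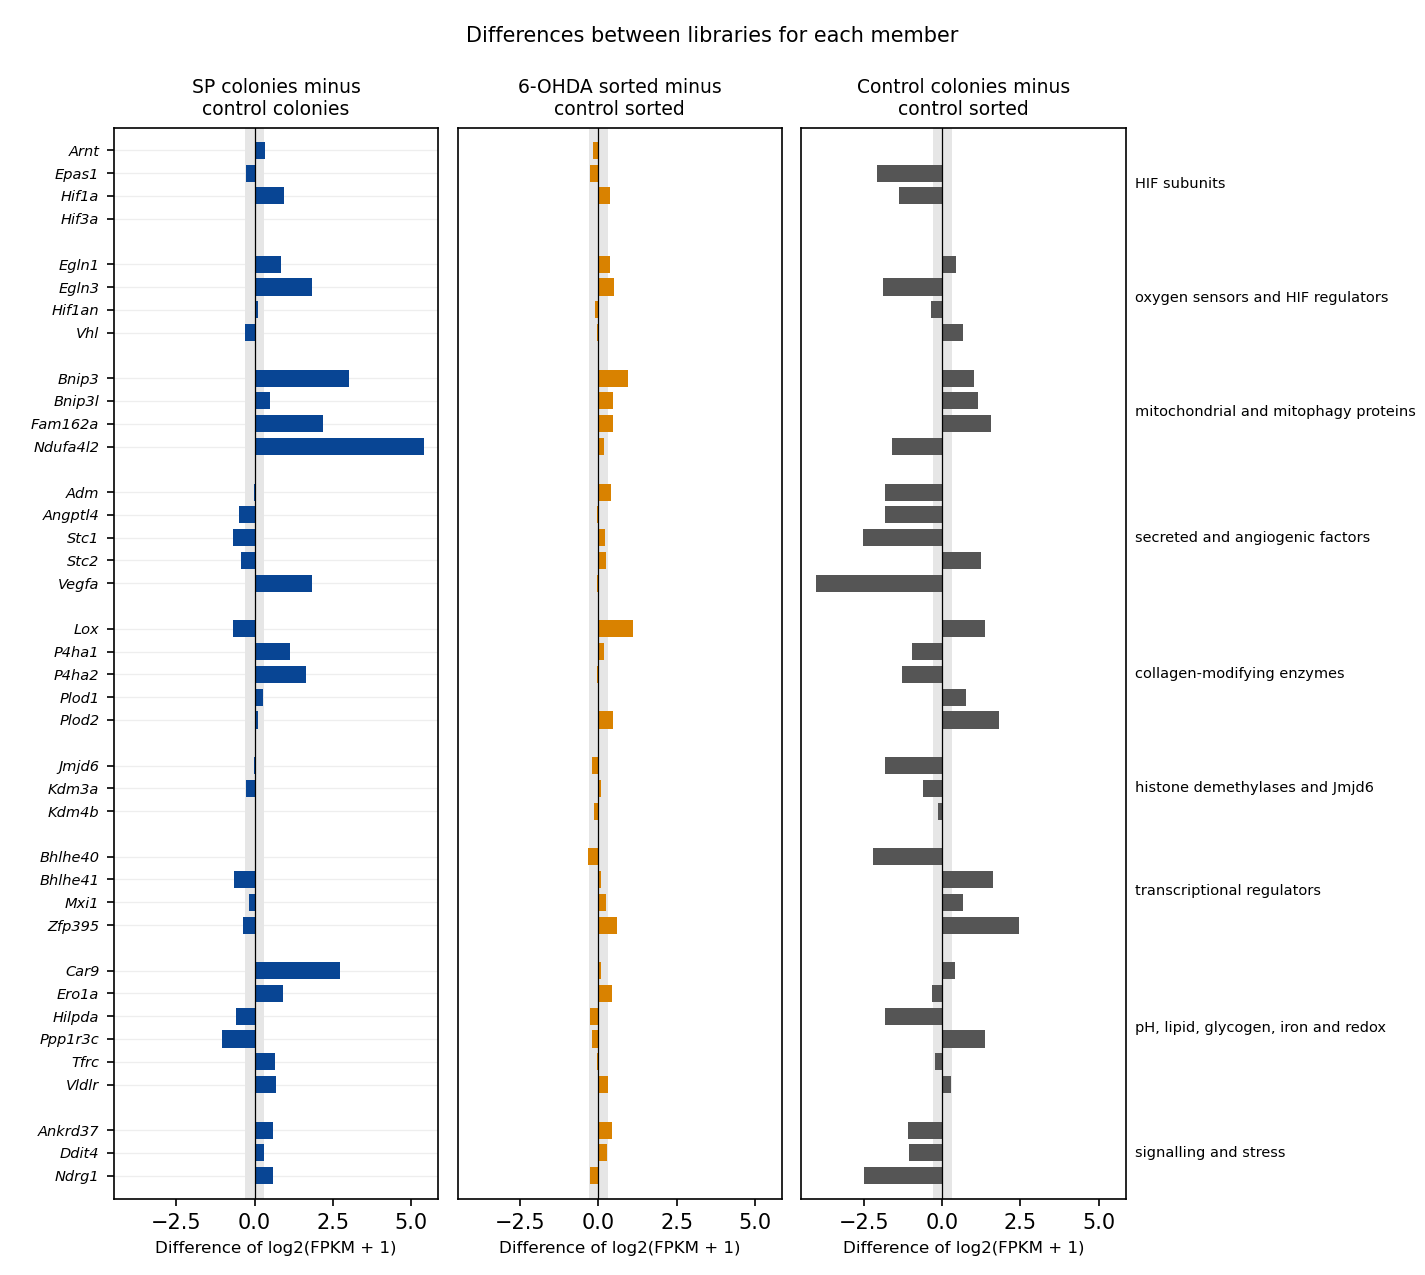
Difference of log2(FPKM + 1) between 2 libraries (horizontal axes) for each of the 38 members (rows, grouped by role), with 1 panel per comparison and the range within 0.3 shaded in grey. The longest bar in the SP panel is that of Ndufa4l2 at 5.39, the longest in the 6-OHDA panel is that of Lox at 1.09, and the longest in the panel of the 2 controls is that of Vegfa at -4.02.

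The mitochondrial group held the largest difference. Ndufa4l2 (NCBI Gene 407790, chr10:127509274-127517154 in GRCm38) encodes a mitochondrial relative of a respiratory chain subunit that is known to restrain complex I under hypoxia. It was listed at 4.18 FPKM in control sorted cells, 4.83 in 6-OHDA sorted cells, 0.72 in control colonies and 71.0 in SP colonies. The FPKM value was 98.7 times higher in the SP colonies than in the control colonies, and the log2 difference of 5.39 ranked 1 of the 12282 genes. Because the control colonies had a value below 1, the size and the rank of this difference depend on the pseudocount. Slc16a3, outside the group, stood close at 5.29, with 0.55 FPKM in control colonies and 59.7 in SP colonies. For Ndufa4l2 the SP colonies also stood far above both sorted libraries.

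Bnip3 and Bnip3l encode receptors on the outer mitochondrial membrane that mark mitochondria for autophagy. Bnip3 (NCBI Gene 12176, chr7:138890836-138909506) was listed at 5.77 FPKM in control sorted cells, 11.9 in 6-OHDA sorted cells, 12.9 in control colonies and 111 in SP colonies. The SP value was 8.66 times the control colony value, a log2 difference of 3.02 that ranked 15 of all genes compared. Bnip3l moved less, with 21.1, 29.1, 47.6 and 67.2 FPKM in the same order and a log2 difference of 0.49 between the colonies. For both receptors the control sorted cells were lowest and the SP colonies highest.

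Fam162a, a mitochondrial protein linked to cell death under hypoxia, was the most abundant member in the SP colonies at 446 FPKM. It was listed at 32.2 FPKM in control sorted cells, 44.5 in 6-OHDA sorted cells and 97.0 in control colonies, and its log2 difference with SP was 2.19. All 4 genes of the mitochondrial group were thus higher with SP, and 3 of them by more than 1.

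Among the secreted factors Vegfa stood alone. Vegfa (NCBI Gene 22339, chr17:46016993-46032377), the main growth factor for blood vessels, was listed at 198 FPKM in control sorted cells, 192 in 6-OHDA sorted cells, 11.2 in control colonies and 42.0 in SP colonies. It was 3.74 times higher with SP (log2 difference 1.82), yet the SP colonies stayed well below both sorted libraries. Adm, which encodes the vasodilator peptide adrenomedullin, was listed at 5.37 FPKM in control colonies and 5.34 in SP colonies. The other 3 secreted factors were lower with SP. Angptl4, an inhibitor of lipoprotein lipase, went from 70.3 to 49.0 FPKM (-0.51), and the stanniocalcin genes Stc1 and Stc2 went from 2.63 to 1.24 FPKM (-0.70) and from 21.2 to 15.3 FPKM (-0.44). Stc1 dropped inside the threshold, to -0.29, at a pseudocount of 5.

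Collagen-modifying enzymes did not all move together. P4ha1 and P4ha2 encode catalytic subunits of the prolyl hydroxylase that stabilises the collagen triple helix. P4ha1 was listed at 25.3 FPKM in control sorted cells, 28.6 in 6-OHDA sorted cells, 12.7 in control colonies and 28.9 in SP colonies. P4ha2 was listed at 13.8, 13.2, 5.10 and 18.0 FPKM in the same order. On the FPKM scale, both enzymes were lowest in control colonies and highest in SP colonies. For P4ha1 the SP value lay only just above that of 6-OHDA sorted cells. The log2 differences between the colonies were 1.13 for P4ha1 and 1.64 for P4ha2. The lysyl hydroxylase genes differed with SP by 0.27 for Plod1 and 0.10 for Plod2, and Plod1 passed the threshold, at 0.34, after scaling by the median ratio. Lox, the oxidase that cross-links collagen outside the cell, was lower with SP, at 4.43 FPKM against 7.75 (-0.69).

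Fibroblast markers moved beside these enzymes. Of 10 fibroblast markers, 6 were lower and 2 were higher in the SP colonies, and their summed level was 48.2 FPKM in control colonies and 30.6 in SP colonies. Col1a2 was the most abundant of them in the control colonies at 20.6 FPKM and stood at 3.94 with SP, while Fbln1 was the most abundant in the SP colonies at 15.1 FPKM. Dpt was listed at 0 in the SP colonies. Fewer cells of a type and less RNA per cell cannot be told apart in such bulk samples, and the part of these markers in the values of Lox and the other enzymes was not tested.

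Genes for acid, lipid, glycogen, iron and redox handling went in both directions. Car9, a carbonic anhydrase of the cell surface and a classical hypoxia marker, was listed at 1.95 FPKM in control sorted cells, 2.10 in 6-OHDA sorted cells, 2.93 in control colonies and 25.1 in SP colonies. The SP value was 8.57 times the control colony value (log2 difference 2.73, rank 21), and only the SP colonies were above 3 FPKM. Ero1a, the oxidase of disulfide formation in the endoplasmic reticulum, was listed at 25.7 FPKM in control colonies and 48.5 in SP colonies (0.89). The receptor genes Vldlr and Tfrc, for lipoproteins and for transferrin, were higher with SP by 0.69 and 0.66.

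Hilpda and Ppp1r3c went the other way. Hilpda, which restrains lipolysis at lipid droplets, was listed at 61.8 FPKM in control sorted cells, 51.2 in 6-OHDA sorted cells, 16.8 in control colonies and 10.7 in SP colonies. Ppp1r3c, which directs a phosphatase to glycogen, was listed at 0.93, 0.68, 4.01 and 1.42 FPKM in the same order. Its difference of -1.05 was the only fall past 1 among the members with SP. This depended on the pseudocount. Ppp1r3c gave -0.49 at a pseudocount of 5, and Stc1 also fell past 1, at -1.03, at a pseudocount of 0.1. Ppp1r3c was highest in the control colonies, whereas Hilpda was lowest in the SP colonies.

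Adipocyte markers were looked at beside the lipid genes, though only Fabp4 of the 8 passed the filter. Their summed level was 212 FPKM in control sorted cells, 377 in 6-OHDA sorted cells, 38.5 in control colonies and 1.13 in SP colonies. Nearly all of it was Fabp4, at 210.2, 374, 34.4 and 1.05 FPKM, a lipid carrier that endothelial cells also express. The other 7 summed to 2.02, 2.87, 4.07 and 0.08 FPKM, so unlike Fabp4 they were highest in the control colonies as a sum. In the SP colonies 5 of the 8 markers, Car3, Cfd, Cidec, Plin1 and Retn, were listed at 0. In the control colonies Retn alone was at 0. The part of these markers in the values of Angptl4 and Hilpda was not tested.

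The HIF subunits differed by less than 1 on the log2 scale with SP. Hif1a (NCBI Gene 15251, chr12:73901324-73947554) encodes the oxygen-labile alpha subunit. It was listed at 96.5 FPKM in control sorted cells, 124 in 6-OHDA sorted cells, 36.8 in control colonies and 70.8 in SP colonies, a log2 difference of 0.93 between the colonies. Epas1, the alpha subunit of HIF-2 that is prominent in endothelium, was listed at 75.1, 61.6, 17.0 and 13.9 FPKM in the same order. Arnt, the beta subunit, stayed between 15.6 and 21.8 FPKM in the 4 libraries. It was higher with SP by 0.33, or by 0.27 at a pseudocount of 5. Hif1a was therefore the most abundant of the 4 subunits in each library on the FPKM scale.

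Among the oxygen sensors, Egln3 and Egln1 encode prolyl hydroxylases that tag HIF alpha for destruction and are themselves HIF targets. Egln3 was listed at 17.2 FPKM in control sorted cells, 24.7 in 6-OHDA sorted cells, 3.92 in control colonies and 16.5 in SP colonies, a log2 difference of 1.83 with SP. Egln1 was listed at 14.3, 19.0, 19.6 and 35.7 FPKM in the same order, with a difference of 0.83. Both sensors were higher with the treatment than in the matching control in sorted cells and in colonies. Vhl, the recognition subunit of the ubiquitin ligase for HIF alpha, was listed at 12.6 FPKM in control colonies and 10.1 in SP colonies. Its difference of -0.30 lay just inside the threshold. It passed, at -0.32, at a pseudocount of 0.1 and after rescaling the libraries to the same sum, but was -0.23 after scaling by the median ratio. Hif1an, the asparaginyl hydroxylase that blocks coactivator binding, differed by 0.12.

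The genes for histone demethylases and repressors showed no rise past the threshold with SP. The histone demethylase genes Kdm3a and Kdm4b and the hydroxylase gene Jmjd6 differed by -0.27, 0.05 and -0.03. The repressor genes Bhlhe40 and Bhlhe41 gave 0.04 and -0.67, the MYC antagonist gene Mxi1 gave -0.19, and Zfp395, which encodes a zinc finger protein, gave -0.37. Of these 7 genes, Bhlhe41 and Zfp395 were lower by more than 0.3. In the signalling and stress group, Ankrd37 and Ndrg1 were higher by 0.60 and 0.59, though Ankrd37 gave 0.27 at a pseudocount of 5. Ddit4, an inhibitor of mTOR signalling, was higher by 0.29, just inside the threshold, and by 0.37 after scaling by the median ratio.

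**Figure D2:**
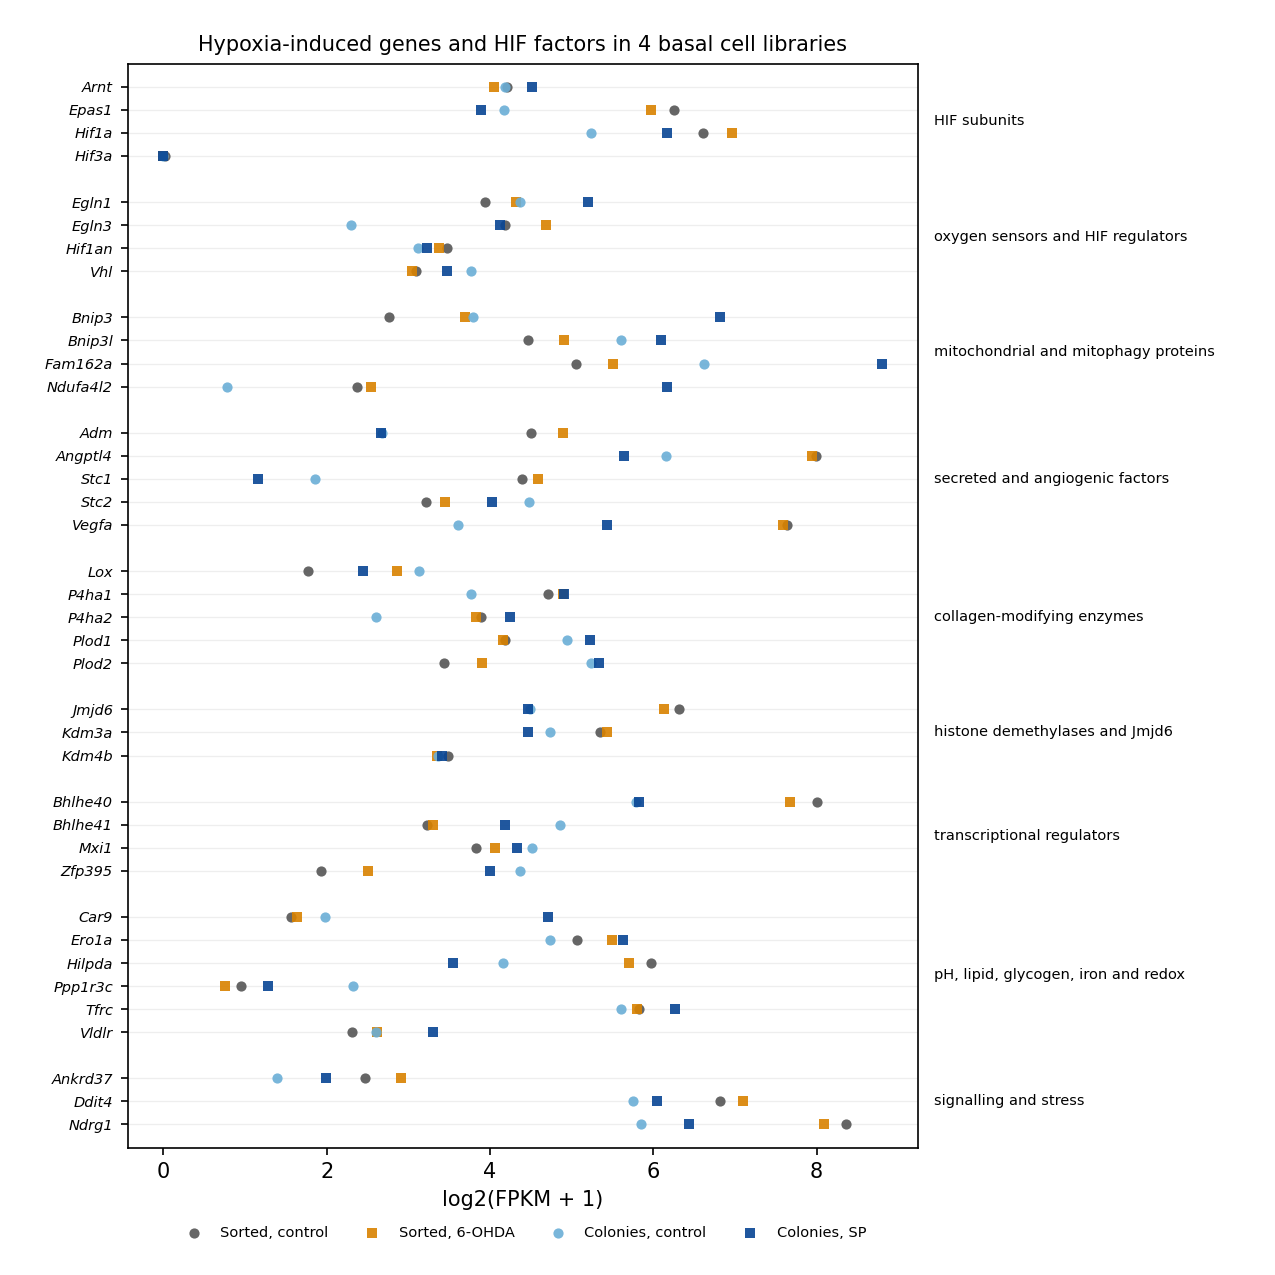
Level of each of the 38 members (rows, grouped by role) as log2(FPKM + 1) on the horizontal axis, with 1 point for each of the 4 libraries. In the mitochondrial group the SP colonies lie to the right of the other 3 libraries for all 4 genes, with Fam162a reaching 446 FPKM, whereas Vegfa, Angptl4, Jmjd6, Bhlhe40 and Ndrg1 lie furthest right in the sorted cells.

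In sorted cells, 6-OHDA went with smaller differences, of which most called ones were upward. Of the 37 members, 13 were higher and 1 was lower by more than 0.3, and 23 lay between. Over all genes 16% were higher and 7.84% were lower. The median difference was 0.17 over the members and 0.06 over all genes. After scaling by the median ratio, 11 members were higher and 4 were lower, and the shares of all genes were 11.6% and 11%. At a threshold of 1, 1 member was higher and 0 were lower, against 1% and 0.806% of all genes.

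Lox passed the threshold of 1 in this comparison, at 6.26 FPKM with 6-OHDA against 2.42 in the control (1.09). It gave 0.60 at a pseudocount of 5. Bnip3 came next, at 11.9 against 5.77 FPKM (0.93), or 1.04 at a pseudocount of 0.1. Zfp395 followed at 4.70 against 2.81 FPKM (0.58). Egln3, Plod2, Bnip3l, Fam162a, Ero1a, Ankrd37, Adm, Egln1, Hif1a and Vldlr were higher by between 0.30 and 0.49. Of these, Hif1a and Vldlr dropped inside the threshold, to 0.29 and 0.24, after scaling by the median ratio. Bhlhe40 was the member below the threshold, at 203 against 256 FPKM (-0.33). After that scaling Epas1 (-0.35), Ndrg1 (-0.34) and Hilpda (-0.33) joined it.

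Several genes with a large difference in colonies showed none of that size in sorted cells. Vegfa stood at 192 FPKM with 6-OHDA against 198 without, Car9 at 2.10 against 1.95 and P4ha2 at 13.2 against 13.8. The comparisons with SP and with 6-OHDA share no library. Of the 17 members higher with SP, 9 were also among the 13 higher with 6-OHDA, and 0 were lower with 6-OHDA by more than 0.3. These 9 were Hif1a, Egln1, Egln3, Bnip3, Bnip3l, Fam162a, Ero1a, Vldlr and Ankrd37. At a pseudocount of 5, Ankrd37 dropped inside the threshold in both comparisons, at 0.27 in each, and Vldlr did so with 6-OHDA, at 0.17. After scaling by the median ratio, an alternative added after the data were seen, 19 members were higher with SP, of which 7 were also higher with 6-OHDA. Hif1a and Vldlr left the shared genes, and 1 member, Ndrg1, was higher with SP (0.66) and lower with 6-OHDA (-0.34). Of all genes higher with SP, 28.3% were also higher and 9.71% were lower with 6-OHDA, and of all genes higher with 6-OHDA, 20.1% were also higher with SP. After scaling, 21.8% of all genes higher with SP were also higher and 12.2% were lower with 6-OHDA. Whether the effects of SP and 6-OHDA differ was not tested, since neither condition has replicates.

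Other cell types differed between the sorted libraries too. Of 10 fibroblast markers, 5 were higher and 0 were lower with 6-OHDA, and their summed level was 209 FPKM in the control and 408 in the 6-OHDA library. Dcn was the most abundant in both, at 115 and 135 FPKM, and differed by 0.22. The 4 markers that were higher by more than 1 were Col3a1 (2.26), Col1a1 (1.91), Col1a2 (1.68) and Lum (1.5), named after their values were seen. Salivary gland secretory genes summed to 1.87 FPKM in the control and 15754 in the 6-OHDA library, where they made up 3.04% of all FPKM. Bpifa2 led them at 7277 FPKM, and it was listed at 0 in the control together with BC037156, Dcpp1, Dcpp2, Prb1, Prol1 and Smr3a. Amy1 led them in the control sorted cells and control colonies, at 1.3 and 1.06 FPKM, and Lpo did in the SP colonies at 0.61. Leaving these genes out of the library sum gave 13 members higher and 1 lower with 6-OHDA, the counts given above. That step changes only the sum and cannot take out member transcripts that came from salivary tissue. The part of such tissue in the values of the members was not tested. The part of the fibroblast markers in the values of Lox and Plod2 was not tested.

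Red and white blood cell genes were low. The erythroid markers, of which 4 of 6 were listed, summed to 1.51 FPKM in control sorted cells, 9.31 in 6-OHDA sorted cells, 0.51 in control colonies and 0.28 in SP colonies. Hba-a1 led them in the sorted cells, at 1.01 and 4.77 FPKM, and was listed at 0 with Hba-a2 and Hbb-bs in both colony libraries, where Alas2 led. Leukocyte markers summed to 13.3, 11.8, 3.37 and 4.67 FPKM in the same order, with Cd68 the most abundant at 6.05, 5.39, 2.70 and 3.26. Of the 10 leukocyte markers, control colonies had 7 listed at 0 and SP colonies had 5. Ptprc, the gene of the CD45 antigen used in the sort, was among them in both, and stood at 0.77 and 0.47 FPKM in the sorted libraries.

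More genes differed between the control libraries than between either treatment and its control. Over all genes the median difference between control colonies and control sorted cells was 0.45, so member values are given here after scaling by the median ratio, which sets that median to 0. On this scale 9 of the 37 members were higher and 22 were lower by more than 0.3 in the control colonies, against 39.6% and 39.4% of all genes, and the median of the members was -0.80. Without scaling, 14 members were higher and 19 were lower, against 55.6% and 26.5% of all genes, with a median of -0.32. At a threshold of 1 without scaling, 9 members were higher and 15 were lower, against 30.6% and 13.1%. This comparison shares its control libraries with the other comparisons, and it sets fresh cells against cultured ones, so culture, time and preparation cannot be told apart.

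Secreted and signalling members were mostly lower in the control colonies. Vegfa differed by -4.49 after scaling, from 198 to 11.2 FPKM, and ranked near the bottom at 12165 of 12282 genes without scaling. Ndrg1, a stress-responsive gene, went from 327 to 56.6 FPKM (-3.01), Stc1 from 20.0 to 2.63 (-2.88) and Angptl4 from 253 to 70.3 (-2.33). The repressor Bhlhe40 went from 256 to 54.1 FPKM (-2.72). Ndrg1, Bhlhe40 and Angptl4 were the 3 most abundant members in control sorted cells.

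A smaller set was higher in the control colonies. Zfp395 went from 2.81 to 19.6 FPKM (1.96 after scaling), Plod2 from 9.80 to 36.6 (1.31), Bhlhe41 from 8.38 to 27.9 (1.13) and Fam162a from 32.2 to 97.0 (1.06). Ppp1r3c (0.98), Lox (0.91), Stc2 (0.77), Bnip3l (0.64) and Bnip3 (0.57) were the others. Egln1 turned direction with scaling, from 0.43 to -0.05. Some paralogs differed in opposite directions under both scales, with Bhlhe41 and Stc2 higher and Bhlhe40 and Stc1 lower in the control colonies. Others went the same way after scaling, among them Bnip3 and Bnip3l, Plod1 (0.27) and Plod2, P4ha1 (-1.41) and P4ha2 (-1.69), and Hif1a (-1.86) and Epas1 (-2.56). Egln3 was lower at -2.28, beside the -0.05 of Egln1.

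Across the 37 members, 15 (40.5%) had both sorted libraries above both colony libraries, and 13 (35.1%) had the reverse. Of all genes, 29.5% and 56.4% did so. The SP colonies held the highest value for 14 members, control sorted cells for 9, 6-OHDA sorted cells for 7 and control colonies for 7. Over all genes the shares were 26%, 19.8%, 15.4% and 38.8% in the same order of libraries. Set beside control sorted cells, the SP colonies were above for 21 members and below for 16, against 62.6% and 37.2% of all genes. After scaling these 2 libraries by their median ratio, an alternative added after the data were seen, they were above for 17 and below for 20, against 49.8% and 50.1%. Egln3 at 16.5 against 17.2 FPKM and P4ha1 at 28.9 against 25.3 were close to the sorted level, whereas Ndufa4l2, Bnip3, Fam162a and Car9 were far above it and Vegfa was far below it.

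Endothelial markers set the sorted libraries apart from the colonies as well. All 11 were lower in the control colonies than in control sorted cells, 10 of them by more than 1. They summed to 385 FPKM in control sorted cells, 386 in 6-OHDA sorted cells, 20.6 in control colonies and 15.8 in SP colonies. Pecam1, the gene of the CD31 antigen that the sort excluded, was the most abundant in both sorted libraries at 107 and 93.0 FPKM, against 1.39 and 1.56 FPKM in the colonies. Erg led in the control colonies at 10.27 FPKM and Flt1 in the SP colonies at 8.87, where Cldn5 and Tie1 were listed at 0. Of the 11 markers, Flt1 and Kdr are also on the list of other hypoxia targets. The part of endothelial transcripts in the sorted levels of Epas1, Vegfa, Angptl4 and Adm was not tested.

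Glycolysis genes, kept out of the group, give the other arm of the hypoxia response. Of 23 genes of glycolysis, glucose and lactate transport, 17 were higher and 1 was lower with SP, with a median difference of 1.17, or 17 and 0 after scaling by the median ratio. The lactate exporter gene Slc16a3 went from 0.55 to 59.7 FPKM (5.29), the phosphoglycerate kinase gene Pgk1 from 261 to 1207 (2.20) and the phosphofructokinase gene Pfkl from 22.4 to 91.9 (1.99). With 6-OHDA, 3 of the 23 were higher and 0 were lower, with a median of 0.02, or 2 and 0 with a median of -0.05 after that scaling. Between the 2 controls the split depended on the scale, with 7 higher and 10 lower in the control colonies as deposited (median -0.09) and 4 and 15 after scaling (median -0.59). Over all genes the shares were 55.6% and 26.5% as deposited, and 39.6% and 39.4% after scaling.

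Other known hypoxia targets were mixed. Of 45 such genes, 43 were listed and 40 passed the filter, and 15 were higher and 9 lower with SP, with a median of 0.02, or 16 and 7 after scaling by the median ratio. The largest differences were those of Tmem45a, from 2.16 to 16.2 FPKM (2.44), the glycogen phosphorylase gene Pygl, from 1.15 to 8.14 (2.09), and the mitochondrial adenylate kinase gene Ak4, from 2.90 to 14.8 (2.02). With 6-OHDA, 5 were higher and 3 were lower as deposited, and 4 were higher and 5 were lower after scaling. Over all genes the shares were 16% and 7.84% as deposited, and 11.6% and 11% after scaling. Against control sorted cells, 11 of these targets were higher and 24 lower in the control colonies, or 7 and 29 after scaling. Over all genes 55.6% and 26.5% did so as deposited, and 39.6% and 39.4% after scaling.

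The remaining HIF machinery was counted in the same way. Of 19 genes, which include the ubiquitin ligase subunits, coactivators and chaperones, 18 passed the filter, and 14 of these lay within 0.3 with SP, as did 69.2% of all genes. The 3 largest differences were negative, at -0.49 for the ubiquitin ligase gene Siah1a, -0.39 for the coactivator gene Ncoa1 and -0.35 for Os9. With 6-OHDA, 4 genes were higher and 0 were lower with a median of -0.01, or 3 and 2 with a median of -0.07 after scaling by the median ratio. Between the 2 controls the split moved with the scale, from 9 higher and 5 lower in the control colonies (median 0.37) to 3 and 6 after scaling (median -0.12). It moved over all genes too, from 55.6% higher and 26.5% lower as deposited to 39.6% and 39.4% after scaling.

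Promoter sequence was looked at for members in each direction with SP. The RefSeq promoter table of GRCm38.p6 gives windows of 300 bases, from 250 bases before each gene start, and it held 35 windows for 27 of the 38 members. Angptl4, Bhlhe40, Bnip3l, Epas1, Kdm4b, Lox, Ndrg1, Ndufa4l2, Plod2, Stc1 and Zfp395 had no window. The cores of the hypoxia response element, ACGTG and GCGTG, were searched on both strands, and matches on opposite strands that overlap were counted separately. A match is only a run of letters and not a binding site.

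At least 1 core was found in 27 of the 35 member windows (77.1%), against 43.8% of all 32851 windows and 61.6% of the windows of genes that passed the filter. The member windows were also richer in G and C, with a median of 64.7% against 52.7% in all windows and 60.7% in those of genes that passed. By gene, 13 of 14 members that were higher with SP had a core in a window, as did 6 of 8 within the threshold and 4 of 4 that were lower. The share was 67.9% of the genes that passed the filter and 46.7% of all genes with a window. Glycolysis genes had a core in 27 of 35 windows, the same as the members. Fam162a had 6 matches and Bnip3 had 5, while Vldlr, which was higher with SP, had 0 in both of its windows.

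**Figure D3:**
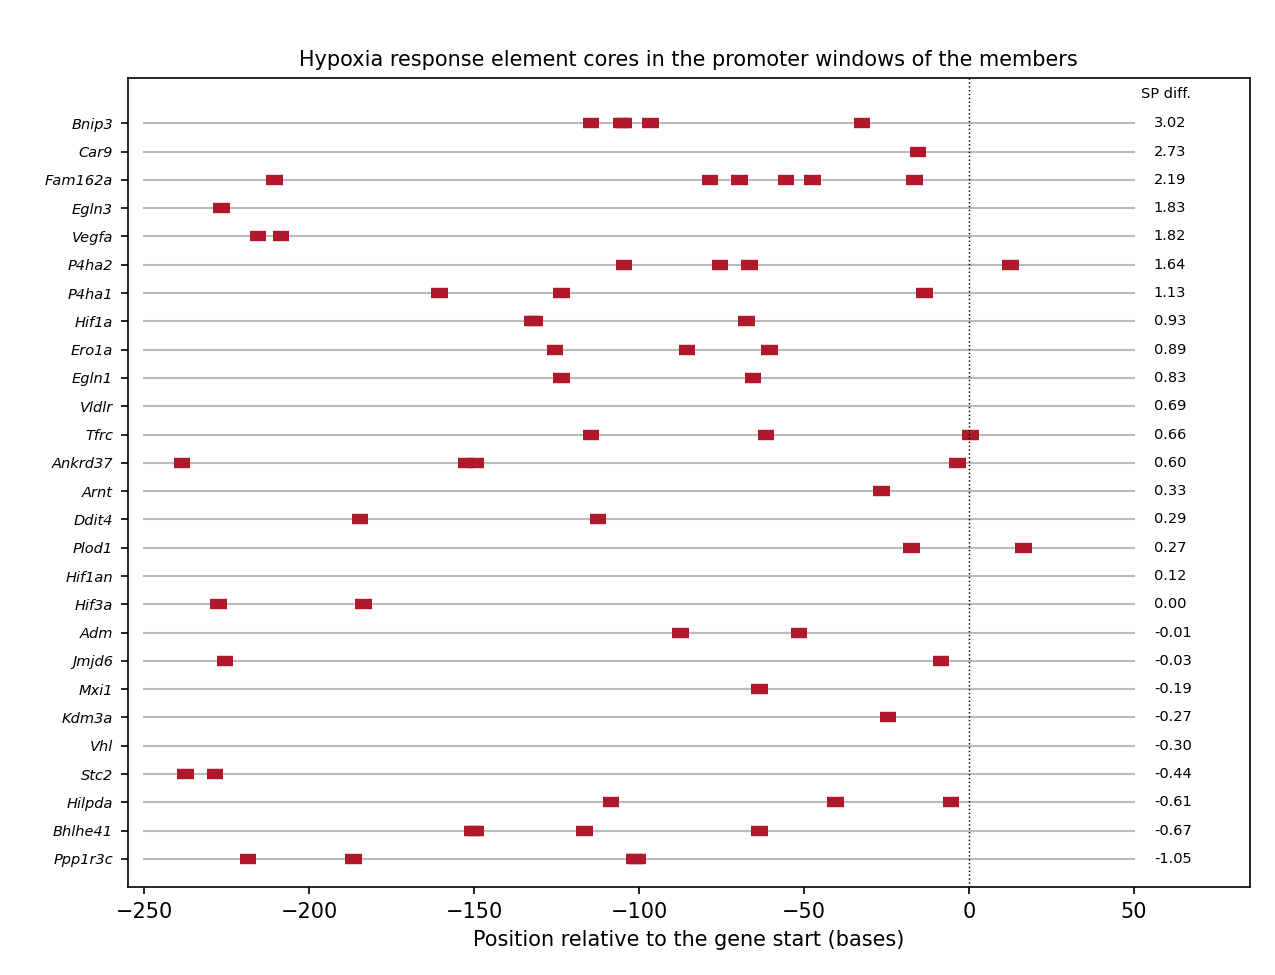
Matches to the hypoxia response element cores (red) along the promoter window (grey line) of each of the 27 members with a window, with the position in bases relative to the gene start on the horizontal axis and the SP difference of log2(FPKM + 1) at the right. Genes are ordered by that difference, the window with the most matches is drawn for each gene, and matches appear at the top (Bnip3, 5) as well as at the bottom (Ppp1r3c, 4).

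Stretches of 110 bases upstream of the start are shown for 4 members that were higher with SP and for 2 that were not, so that the cores can be read in place. They are written on the strand of the gene from 5′ to 3′. Capitals mark the cores, including those read on the opposite strand. Bnip3 (chr7:138909537-138909646, minus strand), Fam162a (chr16:36071576-36071685, minus), P4ha2 (chr11:54100784-54100893, plus) and Car9 (chr4:43506916-43507025, plus) were higher. Ppp1r3c (chr19:36736703-36736812, minus) was lower and Adm (chr7:110627530-110627639, plus) lay within the threshold.
Bnip3: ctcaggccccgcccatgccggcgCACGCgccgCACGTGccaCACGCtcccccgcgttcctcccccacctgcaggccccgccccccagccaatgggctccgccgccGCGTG
Fam162a: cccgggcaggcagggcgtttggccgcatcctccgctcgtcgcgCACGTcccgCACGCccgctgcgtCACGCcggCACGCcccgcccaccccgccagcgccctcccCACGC
P4ha2: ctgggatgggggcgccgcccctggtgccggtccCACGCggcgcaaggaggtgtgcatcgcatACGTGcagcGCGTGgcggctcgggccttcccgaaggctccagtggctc
Car9: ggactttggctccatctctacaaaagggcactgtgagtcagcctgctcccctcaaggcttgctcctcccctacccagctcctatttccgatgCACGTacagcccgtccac
Ppp1r3c: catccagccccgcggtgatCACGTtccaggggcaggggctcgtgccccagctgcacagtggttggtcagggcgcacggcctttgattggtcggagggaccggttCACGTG
Adm: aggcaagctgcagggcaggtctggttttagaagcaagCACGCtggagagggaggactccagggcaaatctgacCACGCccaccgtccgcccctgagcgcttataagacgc

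These stretches held 5 matches for Bnip3, 5 for Fam162a, 3 for P4ha2, 1 for Car9, 3 for Ppp1r3c and 2 for Adm. The 6 genes were shown so that cores could be read in place, so a core in each was given in advance. Among the members not shown, Vldlr, which was higher with SP, and Vhl and Hif1an, which lay within the threshold, had no match in any window.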

How the data were processed

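RNA-seq values of 4 libraries were used, 1 for each condition. The authors deposited FPKM values with 2 decimals for 17630 genes, listed by NCBI Gene number. The submitters' processing notes name Bowtie2, RSEM 1.3.1, DESeq2 1.4.5 and the build mm10, which is GRCm38. Gene names came from RefSeq (GRCm38.p6), where 17512 numbers matched and 118 did not. FPKM divides by all fragments of a library, so very abundant transcripts in 1 library lower the other values there.

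Differences were computed on log2(FPKM + 1) after a filter of a mean of at least 1 FPKM over the 4 libraries. No test was possible with 1 library per condition. The alternatives were pseudocounts of 0.1 and 5, other filters, other scalings, the mean in place of the median and a threshold of 1. The members and gene lists were chosen with earlier results of these data known. Every member could be named, along with the 3 genes of each pathway list that differed most with SP, the most abundant gene of each cell type list in each library and its markers at 0.

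Read counts were not used here. Low FPKM values move in steps of 1 fragment, and for genes with 1 GENCODE transcript these steps put 1 FPKM on 1 kilobase at 16.35 to 17.8 fragments per library, if fragments were 250 bases long. Other lengths, 150 to 300 bases, moved this to 14.95 at the lowest and 19.0 at the highest, which is too rough for intervals on single genes. The calculations were tested on simulated data. The software was Python 3.11.15 with pandas 2.3.3, numpy 2.4.6, matplotlib 3.10.9 and scipy 1.17.1.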

Additional observations from a re-analysis of the deposited data

How the results depend on the processing

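With 1 library per condition no spread between replicates could be set against these values, and the depth gave no interval for single genes. Counts of members were taken as steady when they stayed within 1.5 times, and medians when they stayed within 0.1. At the stricter threshold of 1, fewer genes pass by construction. With SP 8 members were then higher and 1 was lower, with 6-OHDA 1 was higher and 0 were lower, and in control colonies against control sorted cells 9 were higher. The mean over the members with SP was 0.55, above the median of 0.27, because a few members had large differences. With 6-OHDA the count of lower members was 2 at a pseudocount of 0.1, 2 after rescaling to the same sum and 4 after scaling by the median ratio, against 1 in the values as deposited. In control colonies against control sorted cells the median of the members was -0.50 after rescaling to the same sum, -0.50 when the salivary gland secretory genes were left out of that sum, and -0.80 after scaling by the median ratio, which also left 9 members higher. Egln1 reversed in this comparison, to -0.05, under the median ratio. That scaling was added for single members after the data were seen. Of 570 values of single members under the alternatives, 534 stayed on the same side of the threshold, 19 dropped inside it, 16 passed it and 1 reversed. The causes of these shifts beyond the scaling itself were not tested.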

Other observations

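Some hypoxia-related genes outside the group were singled out after their values were seen. Higd1a, which encodes a mitochondrial inner membrane protein, was listed at 24.6 FPKM in control sorted cells, 25.5 in 6-OHDA sorted cells, 22.7 in control colonies and 78.4 in SP colonies. Like Ndufa4l2, Bnip3, Bnip3l and Fam162a, it had its highest value in the SP colonies, as did 26% of all 12282 genes. Ak4, also mitochondrial and outside the group, was instead highest in 6-OHDA sorted cells, at 14.4, 16.7, 2.90 and 14.8 FPKM in the same order. Car12, a carbonic anhydrase of the cell surface like Car9, was listed at 5.88, 9.96, 105.7 and 202 FPKM in the same order, so it was already high in the control colonies where Car9 stood at 2.93. Igfbp3, a binding protein for insulin-like growth factors and a known hypoxia target, was lower with SP, at 323 FPKM against 741.

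Among genes with a mean of at least 5 FPKM over the 4 libraries, the 30 with the largest rise in SP colonies held 4 members of the group, 2 glycolysis genes and 1 other hypoxia target. The other 23 were on none of these lists. Among them were keratin genes of stressed epidermis, with Krt6a at 260.2 FPKM in control colonies and 2198 in SP colonies, and Krt16 at 44.1 and 434 FPKM. These genes were chosen after their values were seen. The members were chosen with these differences known, so their number among the 30 is no support for the group. Members made up 35 of the 9121 genes that passed this filter. Ndufa4l2 and Car9 passed it only through the SP colonies, with 71.0 and 25.1 FPKM there and less than 5 in every other library.

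Stress-related genes of the wider hypoxia list stood out by their level in sorted cells. Hmox1, which encodes heme oxygenase, was listed at 777 and 823 FPKM in the sorted libraries and at 41.2 and 29.3 FPKM in the colonies. Maff, a small transcription factor gene, was listed at 248 and 205 FPKM in sorted cells and at 4.03 and 8.36 FPKM in colonies. Both were picked out after their values were seen, and what part the sorting procedure had in them was not tested.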
